A study of Saccharomyces cerevisiae with 9 samples.

Results

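This report follows 31 yeast genes of the endoplasmic reticulum (ER), chosen by name as genes of protein folding, translocation and glycosylation that are targets of the unfolded protein response. Each was found on the array through the open reading frame name of its probe, and all 31 matched 1 probe, out of 6199 genes on the array. All 31 were well above background on all 9 arrays, so the filter on dim probes removed none, and at least 6 of the 7 spots of a probe were used on every array. By role they are the sensor and factor of the response, the Hsp70 system of the ER lumen, enzymes of disulfide and proline folding, the translocation channel, glycosylation enzymes, and proteins of degradation and export.

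Secretory proteins enter the ER through the Sec61 channel, are folded there by chaperones and oxidised by protein disulfide isomerases, and receive N-linked and O-linked sugars. When unfolded proteins build up, the membrane kinase and endonuclease Ire1 splices the messenger of HAC1, and the Hac1 protein then raises transcription of chaperone, oxidation, translocation, glycosylation and degradation genes. In yeast this pathway is a common readout of ER stress, with KAR2 as its best known target.

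The cells were labelled as BY4743, a diploid laboratory strain of Saccharomyces cerevisiae, and each of 3 conditions was read on 3 arrays: cells given vehicle control, cells treated with HenGC, and cells treated with SoyGC. The design text states that GC from hen of the woods (a mushroom) or from soybean was given at 40 ug/ml for 17 h, gives no dose or time for the vehicle, and does not spell out GC. All groups share the strain, and the sources used here do not name a separate untreated group. Whether the numbered samples of a group were grown apart is not stated in the labels, and all p-values rest on the spread among these samples, which may be technical.

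RNA was measured in 1 colour on Agilent arrays, and levels are log2 processed signals relative to the 75th percentile of the same array. A level therefore says how a probe stands within its own array, and a change in cell number or in total RNA per cell cannot be seen. Between 92.4% and 95.8% of spots were well above background and 0 were saturated. Signals of HIS3, LEU2 and URA3, genes deleted or disrupted in this strain, were not well above background on any of the 9 arrays. Of 11 genes that a diploid is known to repress, 9 were well above background on all 9 arrays, MFA2 on 7 and HO on 4, with highest levels between -7.93 (HO) and -2.38 (RME1) relative to the 75th percentile. No haploid reference was among the samples, so whether these genes were repressed was not tested.

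Vehicle 3 stood apart from its group. Its correlation across genes with vehicle 1 and 2 was 0.977 and 0.979, against 0.998 between those arrays, and it lay over 2-fold below their mean at 8.65% of the 5814 genes tested. Among the 31 genes it lay over 2-fold below at 2 (6.45%), JEM1 and ERJ5, and over 1.5-fold below at 8 (25.8%, against 17.7% of all genes). The other 6 of these 8 were MPD2, DER1, SEC66, SEC62, PMT1 and LHS1. Vehicle 1 and 2 differed over 1.5-fold at 0 of the 31. The main counts, and the values of part of the genes, are therefore given with and without vehicle 3. This array was on a slide with HenGC 3 and SoyGC 3, scanned on a second day, while vehicle 1 and 2 shared a slide with SoyGC 1 and 2, and HenGC 1 and 2 lay on a slide of their own. The part of slide or scan day in the results was not tested apart from the fits named below.

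**Figure D1:**
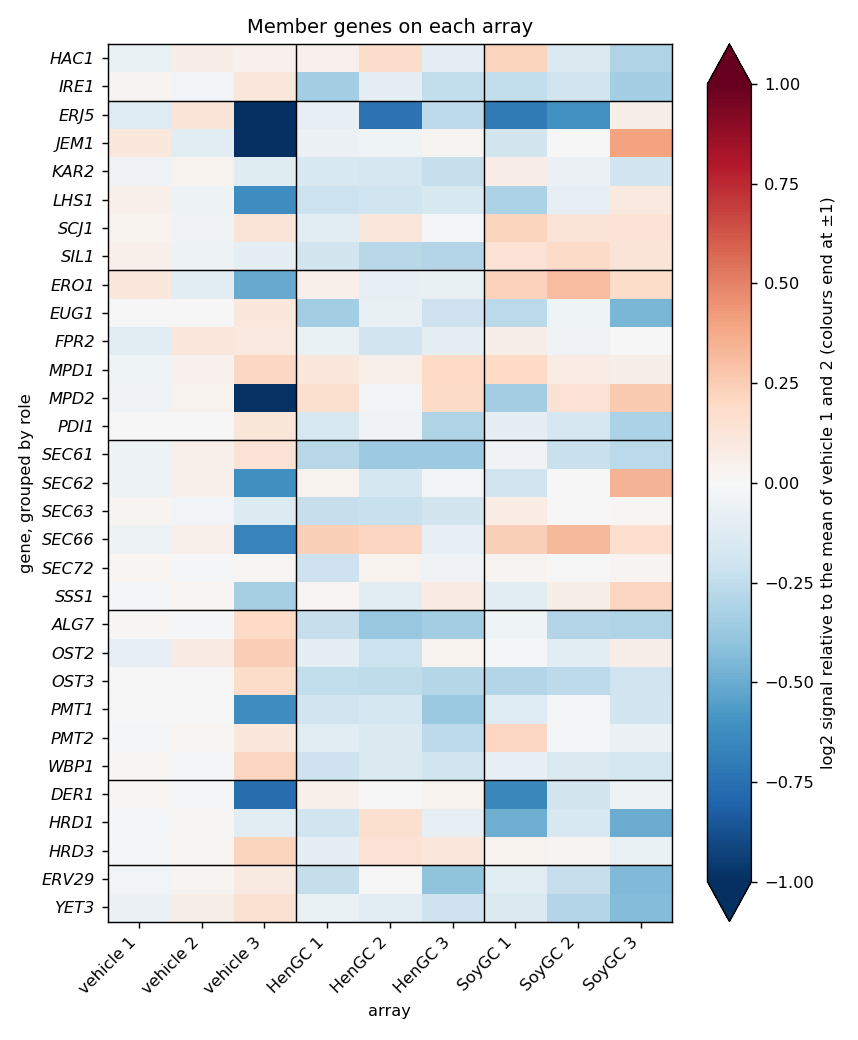
Log2 signal of the 31 genes (rows, grouped by role) on the 9 arrays (columns), as the difference from the mean of vehicle 1 and 2; red is above, blue below, and the colour scale ends before the vehicle 3 values of JEM1 (-2.49) and ERJ5 (-1.14). The darkest cells lie in the vehicle 3 column, at JEM1, ERJ5 and MPD2.

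No gene of the 31 passed the threshold in any comparison, which was a Benjamini-Hochberg adjusted p under 0.05 in limma over all genes tested. In HenGC against vehicle 0 of 31 were called, where 1.19% of all genes were, and in SoyGC against vehicle 0 of 31, where 9.27% of all genes were. In HenGC against SoyGC 0 of 31 and 0% of all genes were called. At an unadjusted p under 0.05, 0 of the 31 were higher and 6 lower in HenGC, against 8.51% and 12.8% of all genes. The counts in SoyGC were 2 higher and 9 lower, against 10.9% and 16.7%. With vehicle 3 left out 0 of 31 were again called in each comparison, where 0.86% of all genes were in HenGC and 2.94% in SoyGC. The unadjusted counts without it were 0 higher and 6 lower in HenGC (6.79% and 8.19% of all genes), and 1 higher and 4 lower in SoyGC (9.49% and 13.8%).

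The median difference over the 31 genes was -0.0744 in HenGC, against 0.0004 over all genes, and -0.0282 in SoyGC, against 0.0038. Differences below 0 were found for 20 of 31 genes in HenGC (49.9% of all genes) and 17 of 31 in SoyGC (49.6%). Without vehicle 3 the medians were -0.129 and -0.0614, beside -0.022 and -0.0381 over all genes. Both comparisons use the same vehicle arrays, so their values for one gene are not independent.

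Ire1 and Hac1 start the response. The IRE1 level (YHR079C) was -3.04, -3.10 and -2.96 on vehicle arrays 1 to 3, -3.41, -3.17 and -3.32 with HenGC, and -3.32, -3.27 and -3.41 with SoyGC. Every treated array lay below every vehicle array. The differences were -0.26 ± 0.10 (SE, n = 3 per group) for HenGC and -0.30 ± 0.10 for SoyGC, with adjusted p = 0.175 and 0.0843, neither past the threshold. Without vehicle 3 they were -0.23 and -0.26.

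HAC1 (YFL031W) stood at 1.27, 1.41 and 1.39 in vehicle, 1.38, 1.52 and 1.25 with HenGC, and 1.56, 1.20 and 1.04 with SoyGC. The 3 groups overlapped, and SoyGC held both the highest and the lowest array. The differences were 0.03 ± 0.14 for HenGC and -0.09 ± 0.14 for SoyGC, with 95% intervals of -0.29 to 0.35 and -0.41 to 0.22. The response acts on HAC1 through splicing, and where the probe lies in the messenger is not given in the files, so spliced and unspliced HAC1 cannot be told apart here.

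Kar2 is the Hsp70 chaperone of the ER lumen. KAR2 (YJL034W) stood at 3.24, 3.30 and 3.15 in vehicle, 3.12, 3.10 and 3.04 with HenGC, and 3.34, 3.21 and 3.08 with SoyGC. All HenGC arrays lay just below all vehicle arrays, while the SoyGC arrays spread across the vehicle range. The difference was -0.14 ± 0.10 for HenGC (adjusted p = 0.381) and -0.02 ± 0.10 for SoyGC (adjusted p = 0.894). Their 95% intervals ran from -0.36 to 0.07 and from -0.24 to 0.19.

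PDI1 (YCL043C) encodes the main protein disulfide isomerase. Its level was 3.95, 3.93 and 4.06 in vehicle, 3.78, 3.90 and 3.64 with HenGC, and 3.85, 3.77 and 3.62 with SoyGC. All 6 treated arrays lay below the 3 vehicle arrays, by little in HenGC 2. The differences were -0.21 ± 0.10 and -0.23 ± 0.10, with adjusted p = 0.283 and 0.185.

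Ero1 is the oxidase that supplies Pdi1 with disulfide bonds. ERO1 (YML130C) stood at 1.12, 0.92 and 0.52 in vehicle, 1.07, 0.94 and 0.95 with HenGC, and 1.25, 1.33 and 1.21 with SoyGC. All SoyGC arrays lay above all vehicle and all HenGC arrays, and the lowest array was vehicle 3. The difference was 0.41 ± 0.14 for SoyGC (1.33-fold, adjusted p = 0.103) and 0.13 ± 0.14 for HenGC (adjusted p = 0.579). Without vehicle 3 the SoyGC difference was 0.24 (adjusted p = 0.193) and the HenGC difference -0.03.

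SEC61 (YLR378C) encodes the pore of the translocation channel. Its level was 2.94, 3.05 and 3.14 in vehicle, 2.72, 2.63 and 2.63 with HenGC, and 2.96, 2.77 and 2.72 with SoyGC. HenGC lay below vehicle on every array, while SoyGC 1 lay within the vehicle range. The HenGC difference was -0.38 ± 0.10 (adjusted p = 0.100, the lowest of the 31 genes in that comparison), and the SoyGC difference was -0.23 ± 0.10 (adjusted p = 0.173). Without vehicle 3 the HenGC difference was -0.34 (adjusted p = 0.202).

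**Figure D2:**
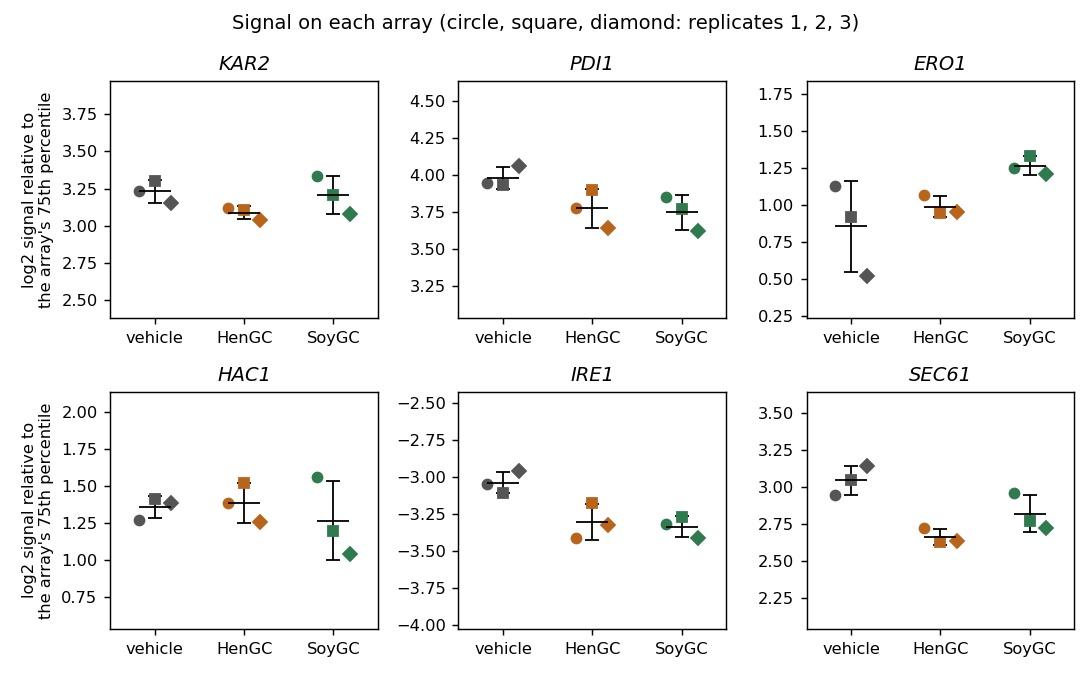
Log2 signal relative to the array's 75th percentile (vertical axis) of 6 core genes in the 3 groups, with a circle, square and diamond for replicates 1, 2 and 3, and a bar for the mean ± SD (n = 3). IRE1 lies lower on all 6 treated arrays, ERO1 is highest with SoyGC and lowest in vehicle 3, and the HAC1 groups overlap.

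The other 5 genes of the Hsp70 system are cofactors of Kar2: the exchange factors LHS1 and SIL1, and the J-proteins SCJ1, JEM1 and ERJ5. With HenGC their differences ran from -0.22 for SIL1 to 0.81 for JEM1, and with SoyGC from -0.04 for ERJ5 to 0.91 for JEM1. None of the 5 was past the threshold. The genes given array by array from here on were chosen after their values were seen.

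JEM1 showed the widest spread, and that spread came from 1 array. It stood at -4.59, -4.80 and -7.19 in vehicle, -4.76, -4.74 and -4.67 with HenGC, and -4.88, -4.69 and -4.29 with SoyGC. Vehicle 3 lay 2.49 below the mean of vehicle 1 and 2 and far below all treated arrays, while the groups otherwise overlapped. Without vehicle 3 the differences for JEM1 were -0.02 (95% interval -0.39 to 0.34) for HenGC and 0.07 (-0.29 to 0.44) for SoyGC. ERJ5 and LHS1 likewise moved from 0.02 each in HenGC to -0.36 and -0.19 without that array. In SoyGC they moved from -0.04 and 0.11 to -0.42 and -0.10. Neither gene was past the threshold either way.

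SIL1 differed most between the preparations. Its level was -0.32, -0.42 and -0.47 in vehicle, -0.56, -0.65 and -0.66 with HenGC, and -0.22, -0.18 and -0.24 with SoyGC. HenGC lay below vehicle and SoyGC above vehicle on every array. The differences from vehicle were -0.22 ± 0.08 (adjusted p = 0.187) and 0.19 ± 0.08 (adjusted p = 0.181).

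Beside PDI1 and ERO1, the folding enzymes were the disulfide isomerase relatives EUG1, MPD1 and MPD2 and the proline isomerase FPR2. EUG1 stood at 1.05, 1.05 and 1.16 in vehicle, 0.70, 0.98 and 0.85 with HenGC, and 0.78, 1.01 and 0.59 with SoyGC, so that both treated groups lay below vehicle without overlap. Its differences were -0.25 ± 0.12 and -0.29 ± 0.12 (adjusted p = 0.283 and 0.166). MPD2 had differences of 0.44 and 0.35, which were 0.11 and 0.02 without vehicle 3. MPD1 and FPR2 lay between -0.15 and 0.05 in both comparisons, and their groups overlapped.

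In translocation, SSS1 encodes a small subunit of the channel, and SEC62, SEC63, SEC66 and SEC72 the complex that brings finished chains to it. These 5 ran from -0.17 (SEC63) to 0.35 (SEC66) with HenGC and from 0.01 (SEC72) to 0.47 (SEC66) with SoyGC. SEC66 stood at -0.36, -0.26 and -0.98 in vehicle, -0.07, -0.10 and -0.40 with HenGC, and -0.08, 0.01 and -0.14 with SoyGC. Every SoyGC array lay above every vehicle array, and vehicle 3 was the lowest of all. The SEC66 difference for SoyGC was 0.47 ± 0.18 (adjusted p = 0.139) and 0.24 without vehicle 3 (adjusted p = 0.264). With scan day as a block the same difference had an adjusted p of 0.046, which passed, where 4.44% of all genes passed as higher.

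SEC63 also recruits Kar2 to the channel. It stood at 1.02, 0.96 and 0.85 in vehicle, 0.76, 0.77 and 0.81 with HenGC, and 1.07, 0.99 and 1.00 with SoyGC. HenGC was the lowest group without overlap, with a difference from vehicle of -0.17 ± 0.08 (adjusted p = 0.281). SEC62, SSS1 and SEC72 overlapped between groups in all 3 comparisons.

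The 6 glycosylation genes had a median difference of -0.23 with HenGC, with 6 of 6 below 0, and of -0.16 with SoyGC, with 4 of 6 below 0. Of all genes 49.9% and 49.6% lay below 0. Wbp1, Ost2 and Ost3 are subunits of the oligosaccharyltransferase, which attaches N-linked sugars, Alg7 starts the lipid-linked sugar that it transfers, and Pmt1 and Pmt2 attach O-linked mannose. PMT1 and PMT2 were the members above 0 with SoyGC, at 0.10 and 0.01. Without vehicle 3 the PMT1 difference was -0.11 with SoyGC, and it moved from -0.04 to -0.25 with HenGC.

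OST3 stood at 1.37, 1.36 and 1.54 in vehicle, 1.12, 1.11 and 1.08 with HenGC, and 1.07, 1.10 and 1.16 with SoyGC. The 6 treated arrays all lay below the vehicle arrays, with a gap wider than the spread within either treated group. Its differences were -0.32 ± 0.09 for HenGC (adjusted p = 0.112) and -0.31 ± 0.09 for SoyGC, whose adjusted p of 0.0564 was the lowest of the 31 genes. Without vehicle 3 they were -0.26 and -0.25 (adjusted p = 0.228 and 0.118). With scan day as a block the SoyGC difference passed, at an adjusted p of 0.0417, where 8.41% of all genes passed as lower.

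ALG7 stood at 0.08, 0.05 and 0.27 in vehicle, -0.16, -0.31 and -0.28 with HenGC, and 0.02, -0.23 and -0.24 with SoyGC. Neither treated group overlapped with vehicle, though SoyGC 1 came close to it. The differences were -0.38 ± 0.11 (adjusted p = 0.119) and -0.28 ± 0.11 (adjusted p = 0.131). WBP1 had differences of -0.26 and -0.21 without overlap, and OST2 of -0.18 and -0.11 with overlap.

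Der1, Hrd1 and Hrd3 belong to the ubiquitin ligase complex that clears misfolded ER proteins, and none of them was past the threshold. HRD1 stood at -1.40, -1.37 and -1.49 in vehicle, -1.59, -1.22 and -1.47 with HenGC, and -1.87, -1.54 and -1.88 with SoyGC. SoyGC lay below vehicle on every array, while HenGC spanned the vehicle range. The HRD1 difference was -0.34 ± 0.13 for SoyGC (adjusted p = 0.122) and -0.01 ± 0.13 for HenGC. DER1 had a difference of 0.28 with HenGC, which was 0.03 without vehicle 3, and of -0.04 with SoyGC, which was -0.29 without it. HRD3 had differences of -0.02 with HenGC and -0.07 with SoyGC.

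Erv29 is a cargo receptor for export from the ER, and Yet3 an ER membrane protein related to human BAP31. YET3 stood at 2.17, 2.28 and 2.38 in vehicle, 2.16, 2.11 and 2.02 with HenGC, and 2.08, 1.93 and 1.79 with SoyGC. All treated arrays lay below all vehicle arrays, HenGC 1 by a narrow margin. The YET3 difference for SoyGC was -0.34 ± 0.10 (adjusted p = 0.0729) and for HenGC -0.18 ± 0.10 (adjusted p = 0.326). ERV29 had differences of -0.24 and -0.29, without overlap in SoyGC alone.

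In all, 12 of the 31 genes lay below vehicle without overlap in HenGC and 0 above, where 17.7% and 12.2% of all genes did. In SoyGC 9 lay below and 4 above, where 20.5% and 13.7% of all genes did. The 4 above vehicle were ERO1, SCJ1, SIL1 and SEC66.

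The 95% intervals bound the size of change that these arrays would still allow, given a spread among samples that may be technical. The 95% interval of the difference lay within 2-fold in both directions for 29 of 31 genes in HenGC and 30 of 31 in SoyGC, where it did for 87% and 86.3% of all genes. JEM1 was the exception in both and MPD2 in HenGC. Within 1.5-fold lay 23 and 24 of 31 (61.7% and 58% of all genes). Without vehicle 3 the intervals of all 31 genes lay within 2-fold in both comparisons, and 30 and 28 within 1.5-fold. Of all 5814 genes, 5608 in HenGC and 5452 in SoyGC then lay within 2-fold, and 4375 and 3996 within 1.5-fold.

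**Figure D3:**
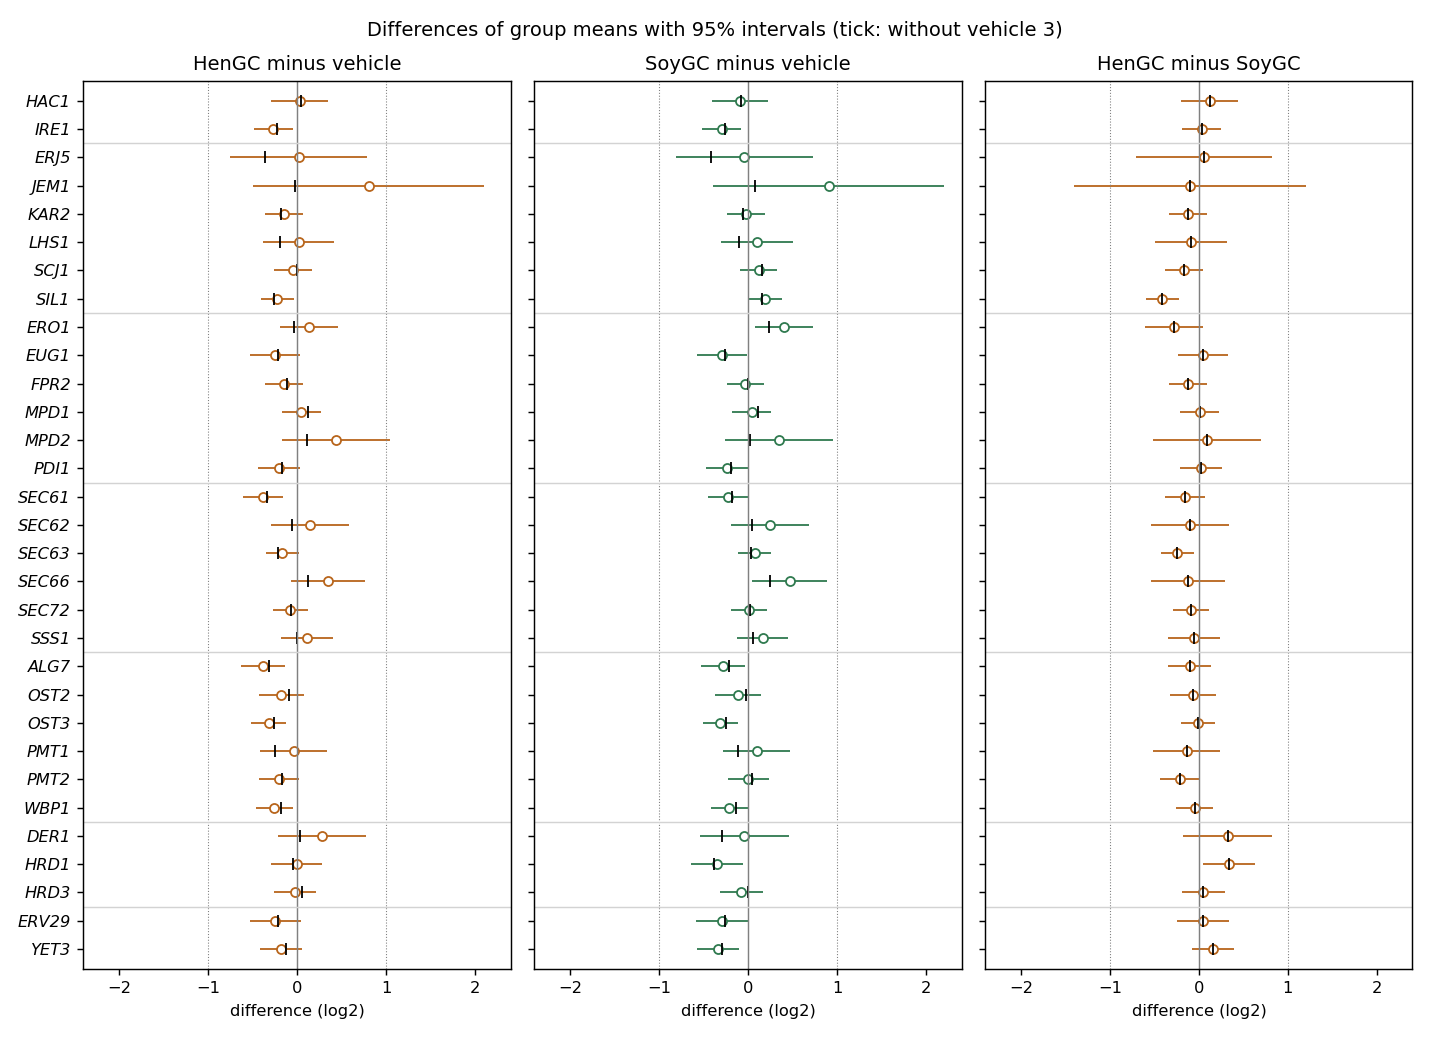
Differences of group means (circles, log2) with 95% intervals for the 31 genes in the 3 comparisons, grouped by role; open circles mark genes not past the threshold, the black tick is the difference without vehicle 3, and dotted lines mark 2-fold. All circles are open, and the intervals of JEM1 are the widest.

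HenGC and SoyGC were then compared with each other, which uses no vehicle array for the means. HenGC 1 and 2 lay on another slide than SoyGC 1 and 2, so for these arrays preparation and slide cannot be told apart. At an unadjusted p under 0.05 there was 1 gene higher in HenGC, HRD1, and 2 lower, SIL1 and SEC63, against 7.12% and 5.57% of all genes. The difference was -0.41 ± 0.08 for SIL1 (unadjusted p = 0.000864, adjusted p = 0.240), -0.24 ± 0.08 for SEC63 (adjusted p = 0.313) and 0.34 ± 0.13 for HRD1 (adjusted p = 0.356). No overlap between the preparations was found for 7 genes lower in HenGC (11% of all genes) and for 1 higher, DER1 (10.5%). The 7 were ERO1, SCJ1, FPR2, SIL1, SEC61, SEC63 and PMT2. Intervals lay within 2-fold for 30 of 31 genes and within 1.5-fold for 24 of 31, where 92.9% and 68.9% of all genes did. The median difference was -0.0676, against 0.0145 over all genes, and 19 of 31 genes lay below 0 (47.1% of all genes). Leaving out vehicle 3 changed only the shared spread here. At an unadjusted p under 0.05, 1 gene was then higher and 3 lower (SIL1, SEC63 and ERO1), where 569 and 436 of all 5814 were. The lowest adjusted p of the 31 was 0.123 (SIL1). Intervals then lay within 2-fold for all 31 and within 1.5-fold for 28, where 5666 and 4596 of all genes did.

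Other ER genes of the same pathways, 91 in 9 lists, were read beside the 31. With HenGC 0 of 91 rose and 0 fell by limma's adjusted p, and 0 were higher and 33 lower at an unadjusted p under 0.05, where 8.51% and 12.8% of all genes were. Without vehicle 3 the 33 became 18, where 8.19% of all genes were lower. With SoyGC 0 rose and 8 fell, where 3.34% and 5.93% of all genes did. The median difference of the 91 was -0.15 and -0.14. All 8 lay below 0 with HenGC as well, as did 66 of the 91 and 49.9% of all genes. That comparison shares the vehicle arrays by which the 8 were called, so their sign in it is not a separate result.

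The genes that fell with SoyGC included 3 of 5 other O-mannosyltransferases, PMT3 (-0.81 ± 0.17, adjusted p = 0.0306), PMT6 (-0.63 ± 0.12, adjusted p = 0.0284) and PMT7 (-0.53 ± 0.11, adjusted p = 0.0335). PMT6 stood at 0.30, 0.32 and 0.67 in vehicle, -0.27, -0.17 and -0.02 with HenGC, and -0.17, -0.21 and -0.20 with SoyGC, with no overlap of either treated group with vehicle. Of 18 genes for the lipid-linked sugar, 4 fell: CAX4, a dolichyl pyrophosphate phosphatase (-0.74 ± 0.17), DPM1, which makes the mannose donor (-0.49 ± 0.13), the glucosyltransferase ALG6 (-0.42 ± 0.11), and SEC59, dolichol kinase (-0.42 ± 0.08). SEC59, the smallest of the 4, was named after its value was seen. The eighth was SPF1, an ER membrane ATPase (-0.48 ± 0.12, adjusted p = 0.0464), 1 of 7 other folding genes. In the lists of response signalling (3), degradation (15), signal recognition and translocation (15), oligosaccharyltransferase (6), glycan trimming (4) and ER exit (18), limma called 0 genes in each. At an unadjusted p under 0.05 these lists had in the same order 0, 1, 0, 2, 0 and 5 genes with SoyGC, all lower, where 16.7% of all genes were. With HenGC they had 0, 4, 1, 5, 1 and 7, all lower, where 12.8% of all genes were. The HenGC counts without vehicle 3 were 0, 1, 1, 2, 1 and 2, where 8.19% of all genes were lower. In the O-mannosyltransferase, lipid-linked sugar and folding lists, 4 of 5, 9 of 18 and 2 of 7 were lower with HenGC at this p. Without vehicle 3 these were 4, 6 and 1. The median differences of these lists were -0.49, -0.30 and -0.03 with HenGC, and -0.53, -0.20 and 0.01 with SoyGC. In HenGC against SoyGC limma called 0 genes in each.

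Leaving out 1 array moved this count of 8. With vehicle 3 left out it was 1 (PMT6, adjusted p = 0.0409), and it was 0 without vehicle 2 or without any 1 of the SoyGC arrays. Without a HenGC array, which enters only through the shared spread, it was 4, 4 and 5. With vehicle 1 left out it was 6.

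The oligosaccharyltransferase was read at 9 subunits, the 3 among the 31 and 6 others. All 9 had differences below 0 in both comparisons, where 49.9% and 49.6% of all genes did. The differences ran from -0.41 to -0.13 with HenGC and from -0.33 to -0.08 with SoyGC. Under each scaling tried these signs held, and in the arrays of scan day 1 alone 8 of 9 lay below 0 with HenGC. None was past the threshold, and at an unadjusted p under 0.05 the counts were 7 and 4 of 9, where 12.8% and 16.7% of all genes were lower. Without vehicle 3 they were 3 and 3 of 9, where 8.19% and 13.8% of all genes were lower. Vehicle 3 lay above the mean of vehicle 1 and 2 at all 9 subunits, with a lowest shift of 0.08. Without it all 9 still lay below 0 in both comparisons, which share the vehicle arrays. The 7 PMT genes lay below 0 in 7 with HenGC and in 5 with SoyGC, beside the same shares of all genes (49.9% and 49.6%). Quantile normalization gave 6 and 5, and median scaling 7 and 6.

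**Figure D4:**
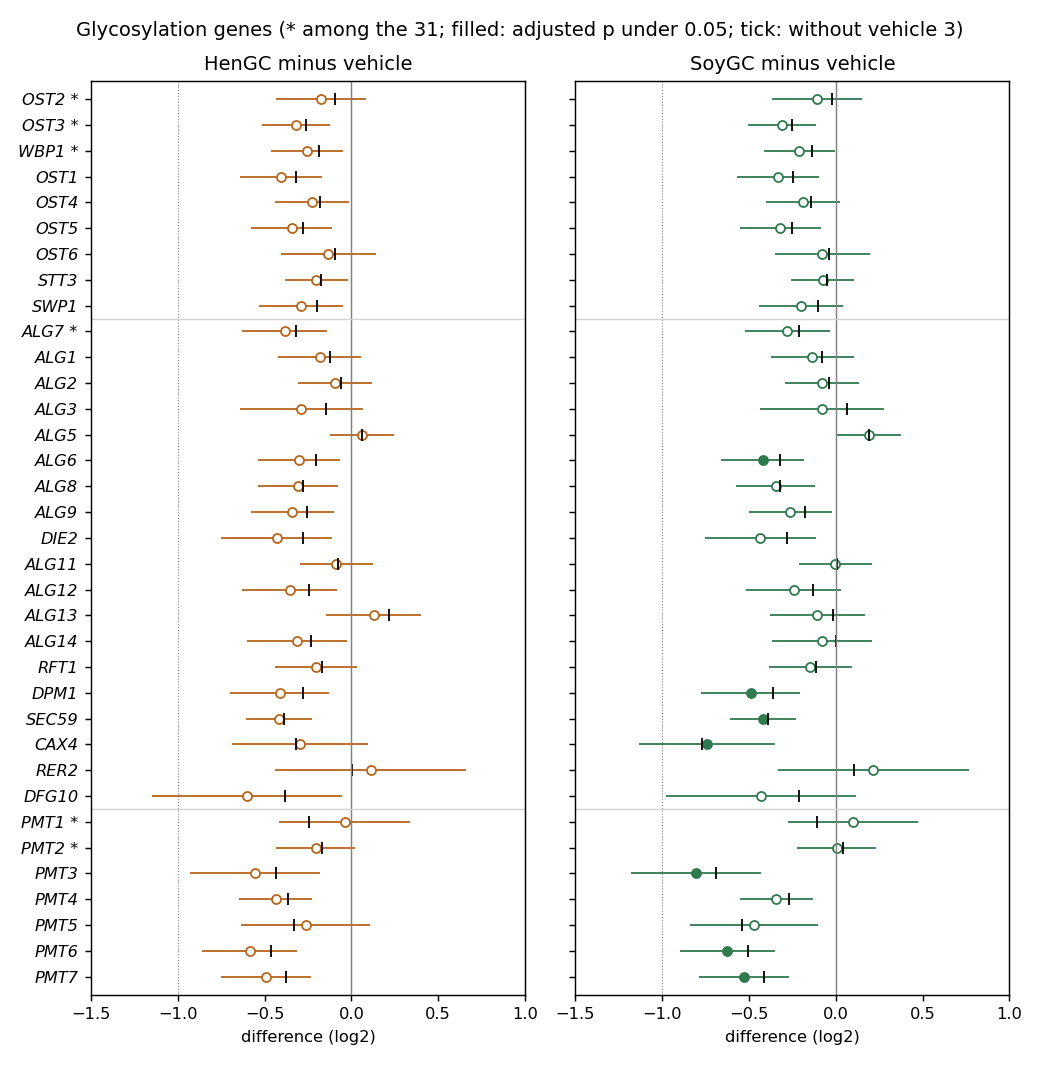
Differences from vehicle (log2, circles) with 95% intervals for the glycosylation genes, with the oligosaccharyltransferase at the top, the lipid-linked sugar genes in the middle and the PMT genes at the bottom; an asterisk marks genes among the 31, filled circles those past the threshold, and ticks the value without vehicle 3. Filled circles occur for 7 genes with SoyGC, none of them among the 31.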

How the data were processed

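Values came from the deposited scanner files, whose processed signal is a linear intensity for each spot. Background had been subtracted by Agilent's Feature Extraction (11.0.1.1), per the file headers. R 3.0.2 also appears in the submitters' processing notes, with no role given. The headers name the build sacCer2, and names came from a gene table of assembly R64 (5765 of 6256 probes matched, and 462 kept the name in the files).

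The log2 of the signal was taken and the 75th percentile of each array subtracted. Outlier spots were dropped and the 7 spots of each probe averaged. Probes with over 50% of spots well above background on all 3 arrays of 1 or more groups were tested, with the brightest probe of a gene, which left 5814 genes. limma 3.58.1 (lmFit, eBayes; R 4.3.3) fitted a mean per group over the 9 arrays, with Benjamini-Hochberg adjustment over all genes tested. The number of arrays limits the precision.

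The alternatives were other background corrections, scalings and filters, the authors' deposited table (linear means of the spots, equal within a relative tolerance of 1e-06, read as log2, with column medians of 2322, 2105 and 2009 for vehicle, 1772, 1799 and 2634 for HenGC and 1772, 2177 and 2504 for SoyGC), slide, scan day or replicate number as a block, array weights, and leaving out each array. The normexp correction (offset 50) used the median signal, since the files hold no mean signal column. By rule, KAR2, PDI1, ERO1, HAC1, IRE1 and SEC61 were given array by array, with any of the 31 past the threshold. The further genes given array by array were chosen after their values were seen. Of the other ER genes, the rule named up to 3 per list past the threshold. The 31 genes and the lists were chosen with earlier results of these data known. No probe, promoter or protein sequences were used here.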

Additional observations from a re-analysis of the deposited data

How the results depend on the processing

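The count of the 31 genes past the threshold stayed at 0 in HenGC against SoyGC under every alternative. In the other comparisons it stayed at 0 except with array weights, slide as a random block or scan day as a block. Array weights, whose estimation stopped before its tolerance was met, gave 4 in HenGC (ALG7, OST3, SEC61 and SEC63, all lower) and 5 in SoyGC (ALG7, OST3, SEC61 and YET3 lower, ERO1 higher). Slide as a random block gave 1 in SoyGC (OST3), and scan day as a block 2 (OST3 lower, SEC66 higher). With any 1 array left out it was 0. The median difference of the 31 genes in HenGC was -0.1477 with median scaling, -0.2232 in the authors' values, -0.1513 with array weights, -0.1207 on scan day 1 and -0.114 on scan day 2, and it ran from -0.1289 to -0.0702 with 1 array left out. In SoyGC the same settings gave -0.0817, -0.0886, -0.0715, -0.0896 and -0.1039, and the range was -0.0614 to 0.0102 with 1 array left out, the highest without vehicle 2. Between the preparations the authors' values gave -0.1555. Over all genes, the authors' unscaled values have medians of -0.1477 in HenGC and -0.0578 in SoyGC. The all-gene medians also moved with median scaling (-0.0728 in HenGC and -0.0497 in SoyGC) and array weights (-0.0105 and -0.0211). They were -0.0127 and -0.0423 on scan day 1, and -0.0552 and -0.0491 on scan day 2. The labels name no pairing, so the replicate numbers were not taken to pair the arrays. Correlations of the arrays' deviations from their group means cannot decide this, since the 3 deviations of a group sum to 0. For equal numbers they were 0.29, 0.04 and 0.18 for HenGC with vehicle, and -0.65, 0.44 and -0.45 for SoyGC with vehicle. For HenGC with SoyGC they were 0.08, 0.56 and 0.52. Different numbers gave, in the same order, -0.29 to 0.25, -0.62 to 0.68 and -0.67 to 0.17. With the replicate block 0 of the 31 genes were called in each comparison. Calls over all genes went from 69 in HenGC to 862 with array weights, 125 with scan day as a block, 28 with median scaling, 39 with quantile normalization, 45 with no filter, 6 with the 2 groups alone, 3 in the authors' values and 0 with slide as a fixed block, and over arrays left out from 3 to 50. In SoyGC 539 went to 1246, 747, 315, 389, 450, 50, 8 and 188, and over arrays left out from 2 to 387. Between the preparations array weights gave 23 in place of 0, and no filter 1. Other ER genes that passed in SoyGC numbered 20 with array weights, 13 with scan day as a block, 4 with median scaling, 2 with slide as a fixed block, and 0 in the authors' values, with the 2 groups alone or on scan day 1. In HenGC they numbered 17 with array weights and 3 with scan day as a block, all lower, and 0 under the other alternatives. Over all genes, 444 and 51 passed as lower in those 2 HenGC fits. No named gene past the threshold changed its direction under any alternative. With 3 arrays a group, the SE of a difference ran from 0.08 to 0.57 (log2) over the 31 genes.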

Other observations

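The shift of vehicle 3, which is 1 array, from the mean of vehicle 1 and 2 had medians that differed by role among the 31 genes, with overlapping ranges. Its median was -0.37 over the 6 genes of the Hsp70 system and -0.23 over the 6 translocation genes, and it was 0.19 over the 6 glycosylation genes and 0.10 over the 6 folding enzymes, beside 0.03 over all genes tested. Within the Hsp70 system the shift ran from -2.49 (JEM1) to 0.13, with KAR2 at -0.12. It ran from -0.67 to 0.14 over the translocation genes, from -0.62 to 0.25 over the glycosylation genes, and from -0.98 to 0.21 over the folding enzymes. Whether the shift depends on role was not tested. In the other ER lists vehicle 3 lay over 2-fold below at 5 of 91 genes (5.49%), 4 of them among the 15 genes of signal recognition and translocation. Without this array the range over the other 8 arrays had a median of 0.40 for the 31 genes and 0.49 for all genes.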
